A study of Mus musculus with 6 samples.

Results

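The genes described here are 56 factors that make ribosomes in mouse islets: subunits and initiation factors of RNA polymerase I and the proteins that process, fold and export the precursors of the 40S and 60S ribosomal subunits. They were taken by matching gene names in the footprint count table to a fixed list of 56 names, a list drawn up with earlier results of these data known although its rule uses no measured value, and each name matched 1 protein-coding gene of the 56747 genes in the table. RNA polymerase I transcribes the ribosomal RNA genes in the nucleolus, and its transcript is trimmed and chemically modified while assembly factors and small nucleolar RNPs (snoRNPs) fold it together with ribosomal proteins. The precursor of the small subunit first forms a large particle, the SSU processome or 90S particle, and the precursor of the large subunit passes through a series of GTPase and AAA ATPase steps before both leave the nucleus for final maturation in the cytoplasm. Islets hold insulin-secreting beta cells, whose protein synthesis is known to respond to glucose.

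The data were ribosome footprint counts (Ribo-seq), that is, sequenced mRNA fragments protected by ribosomes, from primary islets of male C57BL/6J mice aged 6 to 8 weeks. Glucose was set to 2.5 mM in 3 libraries (low glucose) and to 25 mM in the 3 others (high glucose) during a 2 h incubation, after overnight recovery and a glucose-free pre-incubation. Each library held 500 to 600 islets pooled from several mice, and the islets of a mouse were divided between the conditions. Both groups received cycloheximide at 100 μg/mL for the last 15 min, and the labels name no engineered allele and no difference other than glucose. The libraries held 9242549 to 12175699 footprints in low glucose against 16322162 to 20692579 in high glucose, and the medians differed by a ratio of 1.47. Values are given as counts per 1000000 (CPM) scaled by the trimmed mean of M values (TMM), so that each is relative to the other genes of its library. A footprint count follows both the amount of an mRNA and the ribosomes on it, and these were not separated here. Of the 10 beta cell markers examined 7 rose and 2 fell in high glucose, and all 10 were measured, with summed levels of 131907 to 147986 CPM in low and 161362 to 176441 CPM in high glucose. Of 19 acinar cell markers 16 were lower (summed 875 to 941 against 367 to 392.4 CPM, 2 of them at 0 counts in every library), as were 4 of 6 alpha cell markers. Summed levels were also lower, without overlap, for markers of delta cells (6470 to 7079 against 4987 to 5072 CPM), endothelial cells (208 to 221 against 154 to 164 CPM), stellate cells (134 to 144 against 94.8 to 109.6 CPM) and macrophages and leukocytes (218 to 240.3 against 146 to 150.6 CPM), with 2 of 3, 2 of 6, 2 of 6 and 1 of 6 markers called lower, while Krt7 among 5 duct cell markers was called higher. None of 6 proliferation markers was called by edgeR (summed 58.0 to 64.9 against 66.2 to 73.3 CPM). In bulk islets fewer cells of a type cannot be told apart from less RNA per cell, and the part of these shifts in the results below was not tested.

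In high glucose 14 of the 56 genes had more footprints and 4 had fewer, and the other 38 did not pass the test. The genes that rose were led by Polr1e, a polymerase I subunit, and included 6 of the 14 nuclear assembly factors of the 60S subunit. The 4 that fell were the kinases Riok2 and Riok3, the SSU processome protein Wdr43 and the 60S export adaptor Nmd3. The test was edgeR's quasi-likelihood F test over all 13100 genes with enough counts, with Benjamini-Hochberg adjustment over them and a call at an adjusted p below 0.05. All 56 genes passed the filter on low counts, and the lowest count of any of them in a library was 55. They lie on 20 chromosomes, and identifiers are those of the table. The genes called higher were 25% of the 56, against a background of 12.1% of all genes tested, and those called lower were 7.14%, against 10.2%. In either direction the background was 22.2%. All 3 high-glucose libraries lay above all 3 low-glucose libraries for 18 of the 56 (32.1%, background 19.5%), and the reverse held for 6 (10.7%, background 18%). The 56 had a median level of 61.0 CPM, against 15.3 CPM over all genes tested. Between their own quartiles of mean level lay 28 of the 56, and 10 of these were called higher (35.7%). Of all 2191 genes tested in that range of CPM, 22.5% were. Called lower were 10.7% of the 28 genes and 15.2% of the 2191. High glucose lay above low without overlap for 39.3% of the 28 and 31% of the 2191, and below for 14.3% and 21.2%. Backgrounds given from here on are shares of all genes tested and are not matched for level.

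Changes were small for most of the group. The log2 fold change (log2FC, high against low glucose) ran from -0.41 to 1.34 with quartiles of -0.067 and 0.27, and the median was 0.087 against -0.012 over all genes tested. Summed over the group, footprints made up 0.434% ± 0.0022 of a library in low and 0.440% ± 0.0037 in high glucose (SD, n = 3 each), or 4279 ± 30.8 and 4483 ± 25.6 CPM. Polr1e and Bms1, 2 of the 56, rose by more than 1.5-fold at an unadjusted p below 0.05 (background 6.68%). No gene fell by as much in edgeR (background 8.66%), where 6 were lower at an unadjusted p below 0.05 and DESeq2 called 4 at its adjusted threshold. In size, 17 of the 38 genes that did not pass were below 0.1 on the log2 scale. DESeq2 called the same 18 genes and no other. Scaling by library totals alone left 8 genes higher and scaling by the upper quartile left 9. Leaving out high-glucose replicate 1, 2 or 3 left 9 higher, and the number lower was 2 without low-glucose replicate 3 and 1 without high-glucose replicate 2 or 3.

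**Figure D1:**
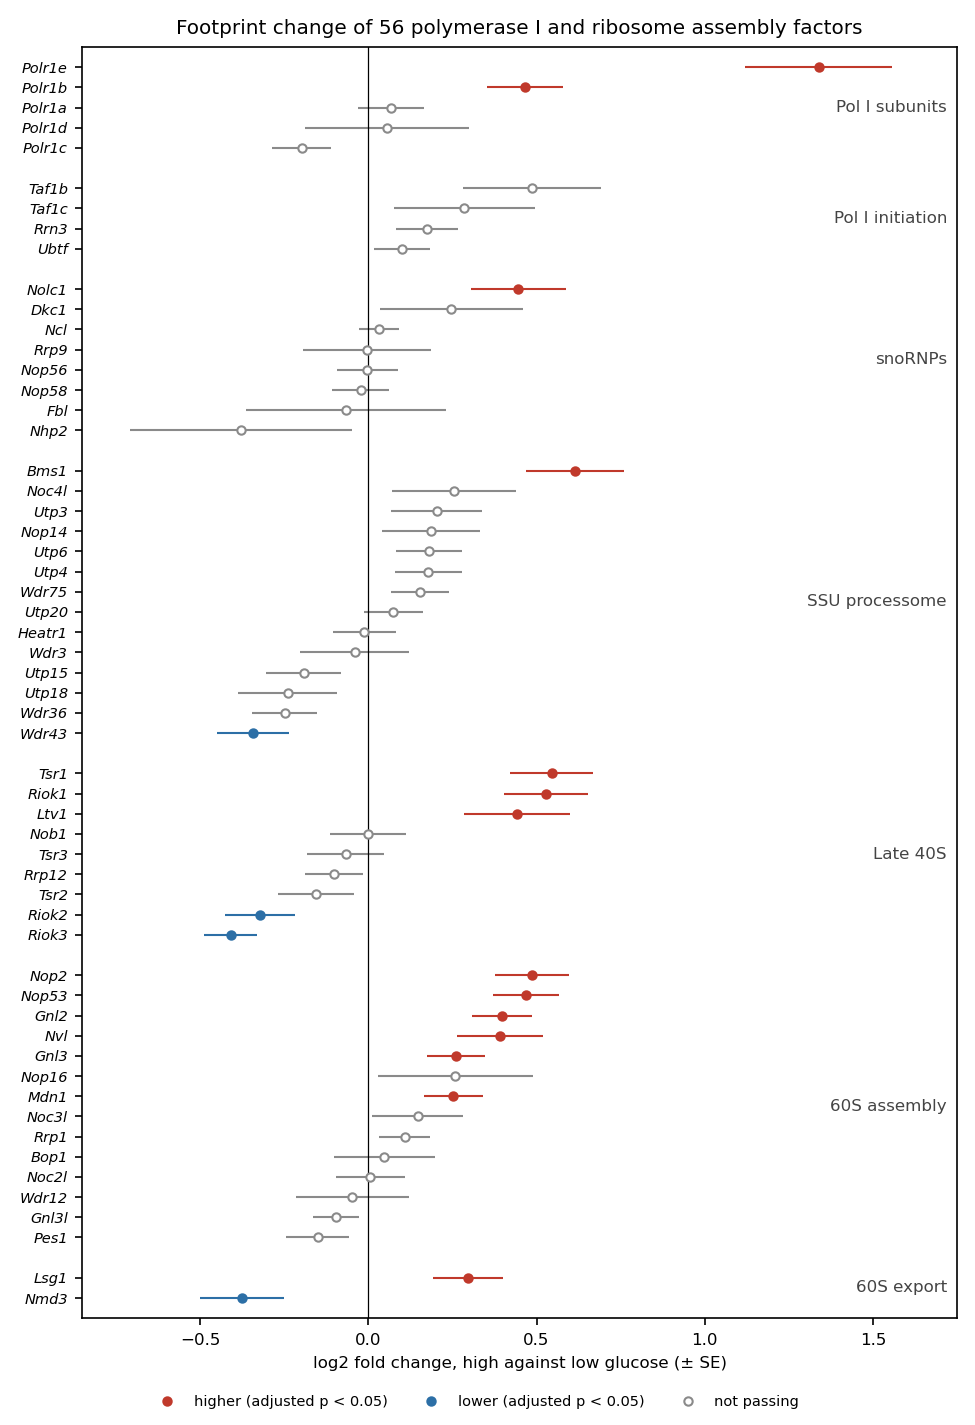
Log2 fold change of each of the 56 genes, high against low glucose (x axis), with its standard error as a bar, grouped by role. Filled red points are the 14 genes called higher, filled blue points the 4 called lower and open points the 38 that did not pass. Polr1e stands at 1.34, and the other called genes lie between -0.41 and 0.61.

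One sequence feature that the choice of genes did not use was the E-box CACGTG, the hexamer bound by MYC with MAX and by USF factors and common in promoters of growth-related genes. It was searched in RefSeq promoters of GRCm38.p6, each 300 bases long, from 250 bases before to 50 after the annotated start. The word reads the same on both strands, so 1 search covers both. A promoter was given for 46 of the 56 genes, and 12 of them (26.1%) held the word, against 8.09% of the 27025 genes with a promoter, 11.8% of the genes tested and 18% of 128 further ribosome assembly, polymerase and exosome genes defined below. Of the cytosolic ribosomal protein genes 9.52% held it. The word was present at 4 of 12 genes that rose, 2 of 3 that fell and 6 of 31 that did not pass. The sites of the 6 called genes are shown, because the same word stands at genes that moved in both directions. Each runs 5′ to 3′ on the strand of its gene with the E-box in capitals.
Nop2 (chr6:125131811-125131840, plus strand, higher): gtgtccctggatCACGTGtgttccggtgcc
Tsr1 (chr11:74898092-74898121, plus strand, higher): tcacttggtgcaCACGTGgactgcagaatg
Ltv1 (chr10:13193092-13193121, minus strand, higher): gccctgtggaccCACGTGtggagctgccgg
Mdn1 (chr4:32657145-32657168, plus strand, higher): gaattccttcacCACGTGtgtgtc
Nmd3 (chr3:69721929-69721958, plus strand, lower): cgccccttgctaCACGTGtattctttgacc
Wdr43 (chr17:71616220-71616249, plus strand, lower): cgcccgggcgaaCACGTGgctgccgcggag
The word began 60 bases before the annotated start of Nop2 and 114 before that of Nmd3, and 18 to 39 bases after the start of Wdr43, Tsr1, Ltv1 and Mdn1. The 6 genes that held it and did not pass were Rrn3, with 2 sites, Pes1, Tsr2, Utp4, Utp18 and Utp20. These are matches of letters, and no binding was measured. Footprints of Myc and Max had log2FC values of -0.37 and -0.41 and did not pass (adjusted p = 0.089 and 0.16 by edgeR). A link between the word and the changes was not tested.

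Of the 5 polymerase I subunits 2 rose (40%, background 12.1% of all genes tested), none was called lower, and the remaining 3 did not pass. Polr1e encodes PAF53, which with its partner PAF49 forms a module of polymerase I that acts in initiation. Polr1e (ENSMUSG00000028318, chromosome 4) had 7.53, 7.12 and 7.88 CPM in the low-glucose libraries 1 to 3 and 20.1, 16.6 and 20.4 CPM in the high-glucose libraries 1 to 3. Every high-glucose library was above 16 CPM and every low-glucose library below 8 CPM, the widest separation in the group (log2FC = 1.34, SE 0.22, adjusted p = 8.7e-05). Polr1b encodes the second-largest subunit, which helps form the catalytic centre. Footprints of Polr1b (ENSMUSG00000027395, chromosome 2) stood at 46.5, 58.7 and 51.3 CPM in low glucose and 67.3, 74.1 and 74.97 CPM in high. The conditions did not overlap (log2FC = 0.47, SE 0.11, adjusted p = 0.0040). Polr1a, the largest subunit, had 74.8 ± 4.25 CPM (SD, n = 3) in low glucose and 78.4 ± 4.86 CPM (SD, n = 3) in high (log2FC = 0.069, SE 0.10, adjusted p = 0.69, 95% interval -0.14 to 0.27). Polr1d, shared with RNA polymerase III, had a log2FC of 0.055, and Polr1c, also shared, had a decrease that did not pass (log2FC = -0.20, SE 0.089, adjusted p = 0.12), and which edgeR called lower in 1 setting, without low-glucose replicate 3 (adjusted p = 0.044). Among these 5 subunits only Polr1c would have counted as lower at an unadjusted p below 0.05.

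Polr1e shares part of its span with Fbxo10 on the opposite strand, which had 74.4% as many counts. Whether strand was used in counting is not given in the sources used here, so reads from the shared stretch cannot be assigned with certainty. Fbxo10 itself had a log2FC of -0.24 (adjusted p = 0.54 by edgeR), against 1.34 for Polr1e. PAF49, the partner of PAF53, is listed as Cd3eap and was not in the group of 56. Its levels were 3.18, 8.32 and 8.12 CPM in the low-glucose libraries and 11.5, 8.70 and 11.7 CPM in the high-glucose libraries. The conditions did not overlap, but the change did not pass (log2FC = 0.69, SE 0.31, adjusted p = 0.13). Polr1h and Polr1f, polymerase I subunits also outside the group, did not pass either. Polr1h was lower in high glucose without overlap (log2FC = -0.45, adjusted p = 0.059 by edgeR), and Polr1f had a log2FC of 0.0077.

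None of the 4 polymerase I initiation factors passed the test in edgeR or in DESeq2, and 1, Taf1b, was higher at an unadjusted p below 0.05. Taf1b is a subunit of SL1, the factor that recognises the ribosomal RNA promoter. The libraries held 13.6, 10.8 and 13.9 CPM of Taf1b (ENSMUSG00000059669, chromosome 12) in low glucose and 20.5, 16.4 and 16.7 CPM in high glucose. The conditions did not overlap (log2FC = 0.49, SE 0.21, adjusted p = 0.097, 95% interval 0.059 to 0.91). Taf1c, another SL1 subunit, had a log2FC of 0.29 (adjusted p = 0.38). The SL1 subunits outside the group, Taf1a and Taf1d, had log2FC values of -0.34 and 0.13 (adjusted p = 0.28 and 0.80 by edgeR). Rrn3, known as TIF-IA, which joins polymerase I to SL1, had 0.17 (adjusted p = 0.19), with all high-glucose libraries above all low-glucose ones. Ubtf, the upstream binding factor that keeps ribosomal DNA open for transcription, was among the 4 members with the most footprints. For Ubtf (ENSMUSG00000020923, chromosome 11), the low-glucose libraries gave 163, 186 and 162 CPM and the high-glucose libraries 180.3, 201 and 166 CPM. These values overlapped (log2FC = 0.10, SE 0.084, adjusted p = 0.45, 95% interval -0.074 to 0.27).

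**Figure D2:**
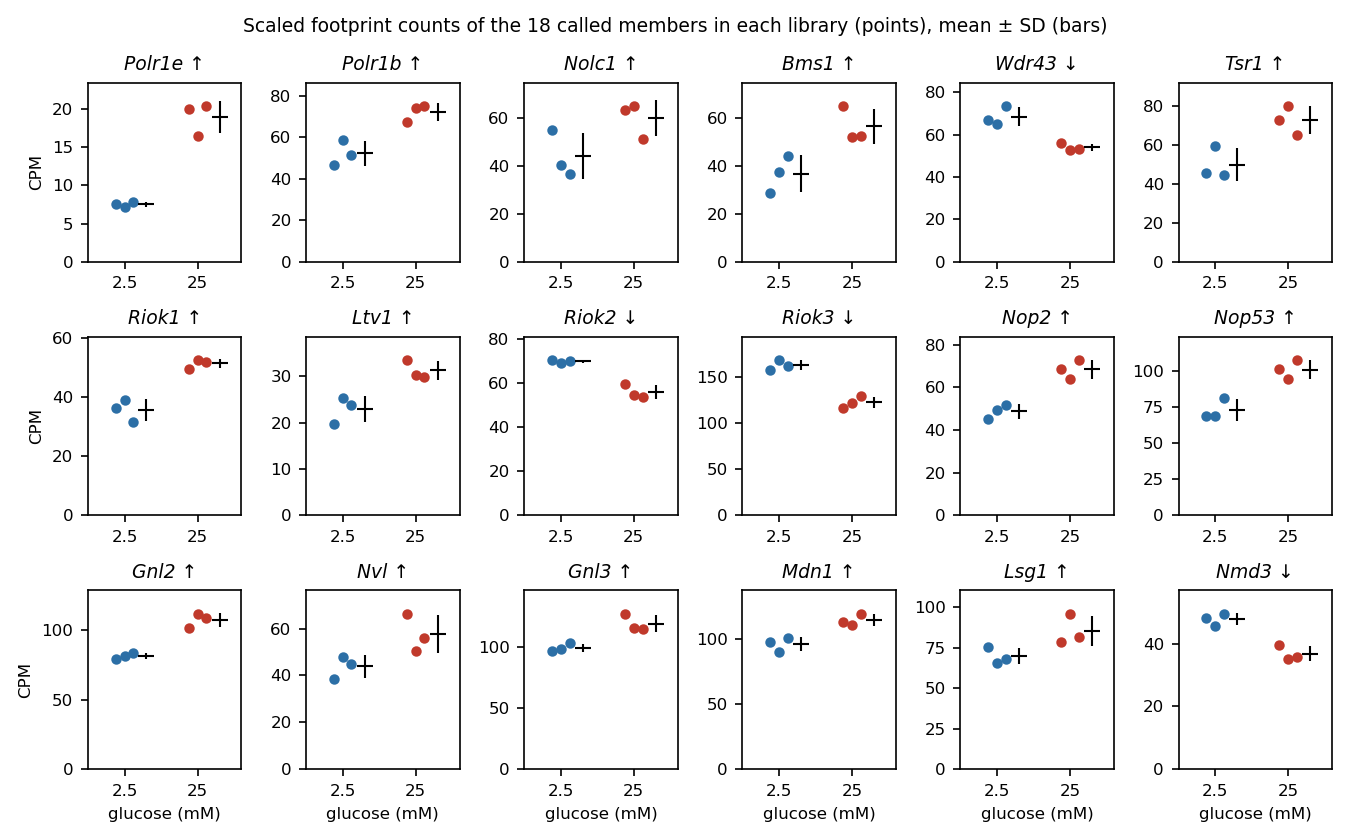
Scaled footprint counts (CPM, y axis from 0) of the 18 called genes in each library at 2.5 and 25 mM glucose. Points are the 3 libraries of a condition and the bar beside them is the mean with 1 SD. Polr1e lay at 7.12 to 7.88 CPM in low and 16.6 to 20.4 CPM in high glucose. In 17 of the 18 panels the conditions do not overlap, the exception being Nolc1. The 18 genes were chosen by the test on these same libraries, so this separation is no further support.

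Among the 8 proteins of snoRNPs, the particles that guide methylation and pseudouridylation of ribosomal RNA, and their chaperones, 1 rose (12.5%, background 12.1%). Nolc1 encodes Nopp140, a nucleolar chaperone that binds both classes of snoRNP. In low glucose Nolc1 (ENSMUSG00000015176, chromosome 19) had 55.0, 40.5 and 36.8 CPM, and in high glucose 63.5, 64.9 and 51.3 CPM. The highest low-glucose library lay above the lowest high-glucose library, and the gene passed the test (log2FC = 0.45, SE 0.14, adjusted p = 0.026). Leaving out low-glucose replicates 2 and 3 or high-glucose replicates 1 and 2, each singly, ended the call of Nolc1, as did scaling by library totals (adjusted p = 0.051 to 0.15). None of the 3 proteins of the methylation core in the group passed, by edgeR or DESeq2, or at an unadjusted p below 0.05. Snu13, a core protein outside the group of 56, was lower at an unadjusted p of 0.028 by edgeR (log2FC = -0.59) and did not pass. Nop56 had a log2FC of -0.0035 (95% interval -0.19 to 0.18), Nop58 -0.023 (-0.20 to 0.15) and Fbl, the methyltransferase fibrillarin, -0.066 (-0.68 to 0.55). Fbl had only 608 counts in all and 10 pseudogene copies in the table with 15 counts together, so its level is uncertain. Dkc1, the pseudouridine synthase dyskerin, had 0.25 (adjusted p = 0.46). Nhp2, another protein of that particle, had the fewest footprints of the group. Footprints of Nhp2 (ENSMUSG00000001056, chromosome 11) stood at 5.83, 6.52 and 6.09 CPM in low glucose and 5.59, 4.56 and 4.05 CPM in high. Low glucose was above high glucose without overlap, and the change did not pass (log2FC = -0.38, SE 0.33, adjusted p = 0.47). Nhp2 overlaps Rmnd5b on the opposite strand, which held 902% as many counts and fell (log2FC = -0.58, adjusted p = 0.0014 by edgeR). Ncl encodes nucleolin, an abundant nucleolar RNA-binding protein, and had the most footprints of the 56. The libraries held 533, 517 and 471 CPM of Ncl (ENSMUSG00000026234, chromosome 1) in low glucose and 538, 506 and 511 CPM in high glucose. The conditions overlapped almost fully (log2FC = 0.032, SE 0.059, adjusted p = 0.76, 95% interval -0.090 to 0.15). Rrp9, the U3 snoRNP protein, had -0.0034 (adjusted p = 0.99). Among these 8 genes none was called lower by edgeR or DESeq2, and none was lower at an unadjusted p below 0.05.

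Of the 14 SSU processome factors 1 rose (7.14%, background 12.1%), 1 fell (7.14%, background 10.2%) and 12 did not pass. Bms1 is a GTPase that acts inside the processome. For Bms1 (ENSMUSG00000030138, chromosome 6), the low-glucose libraries gave 28.5, 37.6 and 44.1 CPM and the high-glucose libraries 64.8, 52.1 and 52.4 CPM. Its 3 high-glucose values were all above the low-glucose values, which were themselves spread (log2FC = 0.61, SE 0.15, adjusted p = 0.0035). Its partner in that particle, Rcl1, is outside the group of 56 and went the opposite way. Rcl1 had 28.6 ± 1.93 CPM (SD, n = 3) in low glucose and 17.1 ± 2.74 CPM (SD, n = 3) in high (log2FC = -0.74, SE 0.17, adjusted p = 0.0031 by edgeR). Wdr43 belongs to UTP-A, a subcomplex that binds the start of the pre-ribosomal RNA. In low glucose Wdr43 (ENSMUSG00000041057, chromosome 17) had 67.1, 64.9 and 73.4 CPM, and in high glucose 55.99, 53.0 and 53.1 CPM. All low-glucose libraries were above all high-glucose libraries (log2FC = -0.34, SE 0.11, adjusted p = 0.022). The call was lost on leaving out, singly, low-glucose replicate 3 or high-glucose replicates 2 and 3 (adjusted p = 0.079 to 0.0998). The other UTP-A members examined (Utp4, Utp15, Heatr1 and Wdr75) had log2FC values from -0.19 to 0.18 and did not pass. In UTP-B, the neighbouring subcomplex, none of 6 genes (Utp6, Utp18, Wdr3, Wdr36, Pwp2 and Tbl3) was called by edgeR or DESeq2, with values from -0.26 to 0.18. Wdr36 of UTP-B came closest (log2FC = -0.25, adjusted p = 0.066), and passed in 4 of the 16 other settings, among them without low-glucose replicate 2, with adjusted p values of 0.022 to 0.037. Pwp2, a UTP-B protein outside the group, was lower at an unadjusted p of 0.034 (adjusted p = 0.11). Utp3, Utp20, Nop14 and Noc4l ranged from 0.074 to 0.25.

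**Figure D3:**
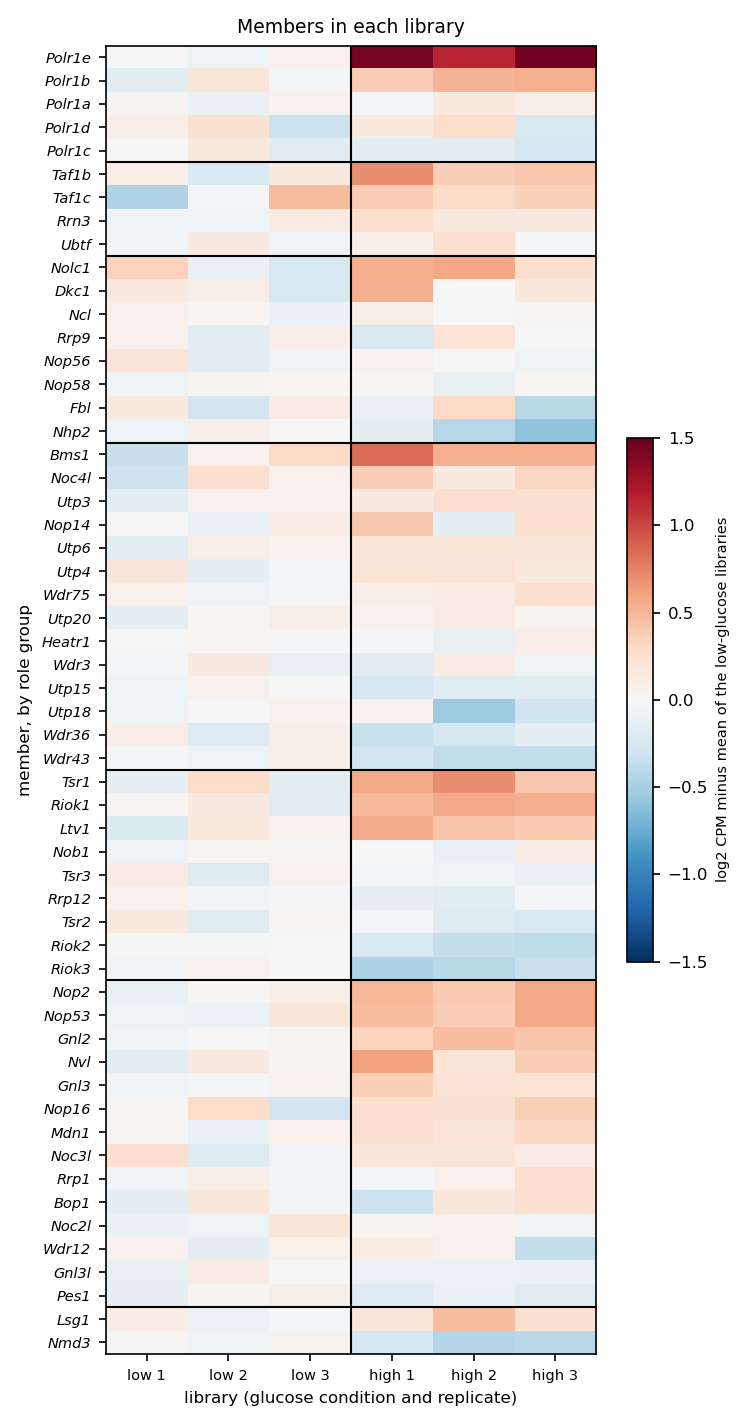
Log2 CPM of each of the 56 genes (y axis, by role group from polymerase I subunits at the top to 60S export at the bottom) in each of the 6 libraries (x axis), minus the mean of the 3 low-glucose libraries. Red is above and blue below that mean, and the 18 called genes keep 1 colour across the 3 high-glucose libraries.

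The late 40S factors split, with 3 of 9 higher (33.3%, background 12.1%) and 2 lower (22.2%, background 10.2%). Tsr1 is a GTPase-like protein that sits on the pre-40S particle and blocks early joining of other factors. Footprints of Tsr1 (ENSMUSG00000038335, chromosome 11) stood at 45.4, 59.5 and 44.5 CPM in low glucose and 73.1, 79.9 and 65.3 CPM in high. High glucose was above low glucose in every library (log2FC = 0.55, SE 0.12, adjusted p = 0.0025). Ltv1 is an export and assembly factor of the pre-40S head. The libraries held 19.8, 25.4 and 23.8 CPM of Ltv1 (ENSMUSG00000019814, chromosome 10) in low glucose and 33.6, 30.4 and 29.9 CPM in high glucose. The groups did not overlap, but the adjusted p was close to the threshold (log2FC = 0.44, SE 0.16, adjusted p = 0.048). Leaving out low-glucose replicates 1 and 3 or high-glucose replicates 1, 2 and 3, each singly, ended the call of Ltv1, as did, among other settings, limma-voom, DESeq2's size factors, scaling by library totals, upper-quartile scaling, no filter on low counts and libraries thinned to the smallest total (adjusted p = 0.051 to 0.17).

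The 3 RIO kinases, atypical kinases and ATPases of pre-40S maturation, all passed the test, 1 higher and 2 lower (background 22.2% in either direction). Riok1 acts in the last cytoplasmic steps of 40S maturation. For Riok1 (ENSMUSG00000021428, chromosome 13), the low-glucose libraries gave 36.5, 38.9 and 31.8 CPM and the high-glucose libraries 49.7, 52.6 and 52.1 CPM. Its high-glucose libraries were all above its low-glucose libraries (log2FC = 0.53, SE 0.13, adjusted p = 0.0036). Riok2, which promotes release of factors from the pre-40S particle, went the other way. In low glucose Riok2 (ENSMUSG00000116564, chromosome 17) had 70.5, 69.0 and 70.2 CPM, and in high glucose 59.6, 54.5 and 53.6 CPM. No library overlapped (log2FC = -0.32, SE 0.10, adjusted p = 0.027). The call was lost on leaving out, singly, low-glucose replicates 2 and 3 or high-glucose replicates 2 and 3, and with no filter on low counts and libraries thinned to the smallest total (adjusted p = 0.054 to 0.11). Riok3, a further paralogue found on pre-40S particles, had the largest decrease of the 56. Footprints of Riok3 (ENSMUSG00000024404, chromosome 18) stood at 157, 168 and 161 CPM in low glucose and 116, 121 and 129 CPM in high. The lowest low-glucose library was well above the highest high-glucose library (log2FC = -0.41, SE 0.079, adjusted p = 5.2e-04). The other late factors, Nob1, the endonuclease that makes the 3′ end of 18S rRNA, Rrp12, an export factor, Tsr2, an escort of a ribosomal protein, and Tsr3, which modifies 18S rRNA, had log2FC values from -0.16 to -0.0019 and did not pass.

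Of the 14 nuclear assembly factors of the 60S subunit 6 rose (42.9%, background 12.1%) and 8 did not pass, with a median log2FC of 0.20. None was called lower by edgeR or DESeq2, and none was lower at an unadjusted p below 0.05. The median level of the 14 was 81.7 CPM. Of all genes tested between the level quartiles of the 56, 22.5% were called higher. Nop2 is a methyltransferase of 28S rRNA. The libraries held 44.9, 49.5 and 51.9 CPM of Nop2 (ENSMUSG00000038279, chromosome 6) in low glucose and 68.7, 63.7 and 72.8 CPM in high glucose. All high-glucose libraries were above all low-glucose ones (log2FC = 0.49, SE 0.11, adjusted p = 0.0025). Nop53 recruits the RNA exosome for trimming of the 5.8S precursor. For Nop53 (ENSMUSG00000041560, chromosome 7), the low-glucose libraries gave 68.7, 68.5 and 81.4 CPM and the high-glucose libraries 101, 94.1 and 107 CPM. The groups were apart (log2FC = 0.47, SE 0.10, adjusted p = 0.0013). Nvl is an AAA ATPase that releases factors from pre-60S particles. In low glucose Nvl (ENSMUSG00000026516, chromosome 1) had 38.7, 47.9 and 44.9 CPM, and in high glucose 66.4, 50.4 and 56.2 CPM. The gap between conditions was narrow and the spread in high glucose wide (log2FC = 0.39, SE 0.13, adjusted p = 0.030). Leaving out low-glucose replicates 1 and 3 or high-glucose replicates 1 and 3, each singly, ended the call of Nvl, as did scaling by library totals and upper-quartile scaling (adjusted p = 0.053 to 0.20). Mdn1, or midasin, is the giant AAA ATPase that remodels pre-60S particles. Footprints of Mdn1 (ENSMUSG00000058006, chromosome 4) stood at 97.2, 89.6 and 100.5 CPM in low glucose and 113, 111 and 119 CPM in high. The conditions did not overlap (log2FC = 0.25, SE 0.087, adjusted p = 0.039). The call was lost on leaving out, singly, low-glucose replicates 1 and 2 or high-glucose replicates 1, 2 and 3, and with scaling by library totals and upper-quartile scaling (adjusted p = 0.050 to 0.15).

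Gnl2, Gnl3, Gnl3l and Lsg1 form a family of GTPases with a circularly permuted GTP-binding domain that work on the 60S subunit. Of these 4 genes 3 rose (background 12.1%). Gnl2 is needed for nuclear export of the pre-60S particle. The libraries held 78.9, 81.6 and 83.7 CPM of Gnl2 (ENSMUSG00000028869, chromosome 4) in low glucose and 102, 112 and 108 CPM in high glucose. Replicates were close and the conditions apart (log2FC = 0.40, SE 0.089, adjusted p = 0.0021). Gnl3, nucleostemin, is a nucleolar protein of proliferating and stem cells. For Gnl3 (ENSMUSG00000042354, chromosome 14), the low-glucose libraries gave 96.9, 98.4 and 103 CPM and the high-glucose libraries 128, 116 and 115 CPM. High glucose was above low glucose in all libraries (log2FC = 0.26, SE 0.086, adjusted p = 0.031). Leaving out low-glucose replicates 1 and 2 or high-glucose replicates 1, 2 and 3, each singly, ended the call of Gnl3, as did scaling by library totals, upper-quartile scaling and libraries thinned to the smallest total (adjusted p = 0.052 to 0.16). Gnl3 overlaps Pbrm1 on the opposite strand, which held 93.9% as many counts and rose by a log2FC of 0.32 (adjusted p = 0.020 by edgeR), so reads of the shared stretch cannot be told apart without strand. Gnl3l, its close relative, had the second most footprints of the 56. In low glucose Gnl3l (ENSMUSG00000025266, chromosome X) had 264, 309 and 284 CPM, and in high glucose 268, 267 and 266 CPM. These overlapped and did not pass (log2FC = -0.10, SE 0.068, adjusted p = 0.35, 95% interval -0.24 to 0.045). Rrp1, a nucleolar factor of 60S assembly, was also among the 4 most abundant. Footprints of Rrp1 (ENSMUSG00000061032, chromosome 10) stood at 224, 249 and 227 CPM in low glucose and 230.4, 246 and 277 CPM in high. The conditions overlapped (log2FC = 0.11, SE 0.075, adjusted p = 0.35, 95% interval -0.048 to 0.26). The PeBoW complex, made of Pes1, Bop1 and Wdr12 and needed for 28S and 5.8S processing, had log2FC values of -0.15, 0.047 and -0.047, and none was called by edgeR or DESeq2 or passed at an unadjusted p below 0.05. Noc2l, Noc3l and Nop16 had 0.0062, 0.15 and 0.26.

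The pair that acts on the exported 60S subunit moved in opposite directions. Nmd3 is the adaptor that carries the pre-60S particle to the export receptor and stays on it in the cytoplasm. The libraries held 48.3, 45.6 and 49.6 CPM of Nmd3 (ENSMUSG00000027787, chromosome 3) in low glucose and 39.7, 35.1 and 35.8 CPM in high glucose. All low-glucose libraries were above all high-glucose libraries (log2FC = -0.38, SE 0.12, adjusted p = 0.032). The call was lost on leaving out, singly, low-glucose replicates 1 and 3 or high-glucose replicates 2 and 3, and with no filter on low counts (adjusted p = 0.055 to 0.12). Lsg1 is the cytoplasmic GTPase that releases Nmd3 from the 60S subunit. For Lsg1 (ENSMUSG00000022538, chromosome 16), the low-glucose libraries gave 75.3, 65.6 and 68.2 CPM and the high-glucose libraries 78.6, 96.1 and 81.7 CPM. High glucose was above low glucose in every library by a small margin (log2FC = 0.30, SE 0.10, adjusted p = 0.045). Leaving out low-glucose replicates 2 and 3 or high-glucose replicates 2 and 3, each singly, ended the call of Lsg1, as did, among other settings, DESeq2's size factors, scaling by library totals, upper-quartile scaling and libraries thinned to the smallest total (adjusted p = 0.054 to 0.25). The grouping into complexes and partners used in this and the preceding paragraphs was made after the values were seen.

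Levels of different genes were compared per kb of the deposited gene length, whose definition is unstated. Coding lengths, on which footprints fall, were not used. The order below therefore depends on that length, such as 11955 bases for Wdr12 and 10188 for Ncl. On the scale of CPM per kb, averaged over the 6 libraries, Rrp1 was highest at 72.5, followed by Polr1c at 54.7, Ncl at 50.3, Gnl3l at 49.6 and Tsr3 at 47.3. The lowest were Dkc1 at 3.72, Polr1e at 3.40, Wdr12 at 2.20 and Fbl at 1.70. Polr1e, the gene with the largest change, was thus among the lowest on this scale, at 1.93 CPM per kb in low and 4.88 in high glucose. The high-glucose level was still below that of Polr1b, at 12.4 CPM per kb in high glucose. In all, 21 of the 56 overlapped another counted gene in position, and for 9 of them that gene held at least 10% as many counts. Besides Polr1e, Nhp2 and Gnl3 these were Nop56, Dkc1, Wdr3, Heatr1, Tsr3 and Bop1, none of which passed the test. Mroh1 held 343% as many counts as Bop1, Gdap2 190% as many as Wdr3 and Baiap3 110% as many as Tsr3. Of these, edgeR called Mroh1 and Gdap2 higher (log2FC = 0.30 and 0.82) and did not call Baiap3. The use of strand is unknown, so the values of Bop1, Wdr3 and Tsr3 given above carry this limit.

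Further genes of the same pathway numbered 157 in 5 lists, of which 156 were tested, with a median log2FC of 0.015. Of those tested 14 were called higher (8.97%, background 12.1%) and 12 lower (7.69%, background 10.2%). By list, in the order below, 15.4, 7.41, 10.2, 7.69 and 6.25% were called higher. Called lower were 0, 7.41, 12.2, 5.77 and 6.25%. Of 13 other polymerase I genes 2 rose, Baz2a (0.45), a subunit of a complex that silences ribosomal DNA, and Top1 (0.36), DNA topoisomerase I, while edgeR called none lower (DESeq2 called 1, and 2 were lower at an unadjusted p below 0.05). Of 27 RNA polymerase III genes 2 rose, Gtf3c1 (0.23) and Polr3d (0.46), and 2 fell, Polr3k (-0.65) and Maf1 (-0.85), the latter a repressor of polymerase III. Of 49 other small-subunit factors 5 rose, among them Dcaf13 (0.66), Emg1 (0.43) and Rrp7a (0.79), and 6 fell, among them Dhx37 (-0.59), Rcl1 (-0.74) and Ruvbl2 (-0.49). Of 52 other large-subunit factors 4 rose, among them Ddx21 (0.52), Rbm28 (0.61) and Senp3 (0.57), and 3 fell, Ftsj3 (-0.45), Spata5 (-0.49) and Wdr74 (-0.34). Of 16 exosome and 3′ processing genes tested, Mtrex (0.39), the helicase that feeds the nuclear exosome, rose and Eri1 (-0.77) fell. The cytosolic ribosomal proteins, which these factors assemble, had a median log2FC of 0.64, with 56 of 79 called higher and 1 lower. The difference between the ribosomal proteins and the assembly factors was not tested.

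**Figure D4:**
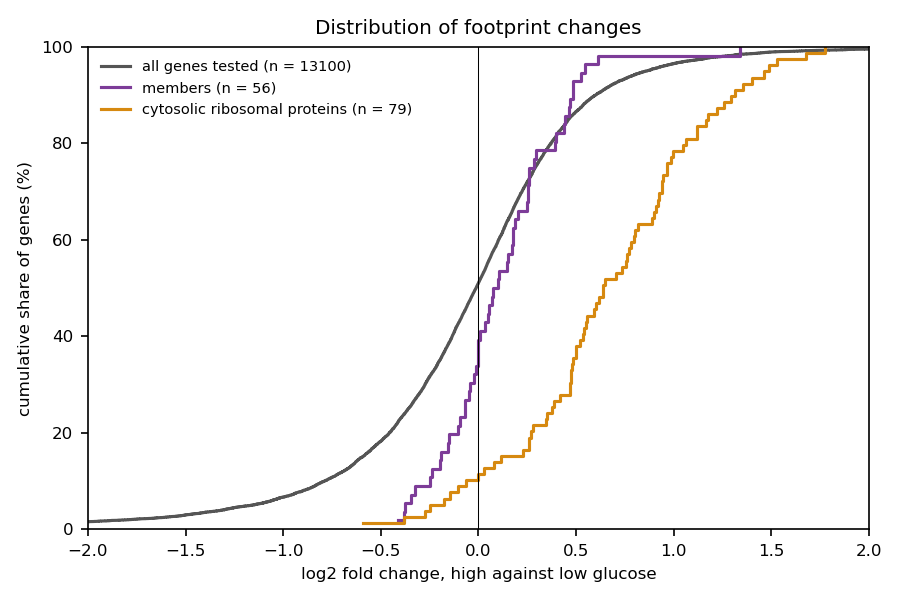
Cumulative share of genes (y axis, %) against the log2 fold change, high against low glucose (x axis, shown from -2 to 2), for all 13100 genes tested, the 56 members and the 79 cytosolic ribosomal protein genes tested. The members run from -0.41 to 1.34 around a median of 0.087, next to the median of all genes, and the ribosomal proteins have a median of 0.64.

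Of the 18 called genes, 9 kept their call in all 16 other settings of test, scaling, filter, depth and libraries, while the 1.5-fold rule given above retained Polr1e and Bms1. These were Polr1e, Polr1b, Bms1, Tsr1, Riok1, Nop2, Nop53 and Gnl2 among the genes that rose and Riok3 among those that fell. No called gene changed direction in any of these settings.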

How the data were processed

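Islet footprints were measured by Ribo-seq in 3 low- and 3 high-glucose libraries. The deposited values are raw gene counts that the authors made with TopHat2 2.0.12 and HTSeq 0.9.1 after removal of rRNA and tRNA reads with Bowtie. The labels name mm10, and whether strand was used in counting is not given in the sources used here. Positions in the table do not match mm10, so no gene positions were printed, and columns of gene length were taken as given, their definition being unstated. Coding lengths, planned for the levels per kb, were not used here.

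The counts were filtered with filterByExpr, scaled by TMM (factors 0.980 to 1.02) and fitted across 13100 genes with edgeR 4.0.16 in R 4.3.3, with no covariate (common dispersion 0.042, 4 residual and 17.6 prior degrees of freedom). A log2 fold change is high minus low glucose. P-values were adjusted over all genes tested. Alternatives were DESeq2 1.42.0, limma-voom (limma 3.58.1), other scalings and filters, thinning, a replicate block, leaving out each library, and a fold change above 1.5 with an unadjusted p below 0.05, the rule the study used with DESeq2 1.14.1. Replicates differed beyond counting noise (chi-square per degree of freedom 6.61 to 10.6), so none was counted as a repeat. Where a library holds 9242549 footprints, 1 CPM is about 9.44 counts. P-values rest on the spread between the libraries of a condition, estimated with the help of all genes tested. The main fit took the libraries as independent, although the islets of a mouse were divided between the conditions. Values in every library are given for called genes, the 4 with the highest mean CPM, and uncalled genes whose conditions do not overlap and whose log2 fold change exceeds 0.3 in size. Of other lists at most 3 called genes in each direction are named. Uncalled genes of those lists are named as partners in a complex or, for Myc and Max, as E-box binders. The members and all lists were chosen with earlier results of these data known, and no test over a list was made. Promoter sequences are from RefSeq, GRCm38.p6.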

Additional observations from a re-analysis of the deposited data

How the results depend on the processing

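The number of the 56 genes called higher, 14, was 8 with scaling by library totals, 9 with upper-quartile scaling, 2 when called by fold change (over 1.5, with the unadjusted p below 0.05), and 9 to 10 on leaving out each library in turn. The number called lower, 4, was 2 without a filter on low counts and 1 to 4 on leaving out each library. With the fold-change rule in edgeR it was 0, where 6 were lower at an unadjusted p below 0.05 and DESeq2 called 4. Their median log2FC of 0.087 was 0.039 with library totals and 0.046 with upper-quartile scaling, where the medians of all genes were -0.060 and -0.053, and 0.056 to 0.12 on leaving out each library. Of the 156 other pathway genes, 14 were called higher and 12 lower. These counts were 6 higher with the fold-change rule, and 9 to 14 higher and 7 to 15 lower on leaving out each library. The TMM factors were 1.01 to 1.02 in low and 0.980 to 0.987 in high glucose, which by construction raises log2FC values against library totals. The cause of the other shifts was not tested. Over 56 genes and 16 settings, 61 values lost a call, 5 gained one and 830 stayed on their side of the threshold. No called gene changed sign, and 46 values called in neither setting did. All genes gave 1579 higher and 1333 lower, but 1311 and 1585 with library totals.

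Libraries of the same replicate number had r values of 0.0074, 0.0068 and 0.011 between their deviations from the condition means, over all genes tested. Libraries of different number had r from -0.0085 to 0.00089. Such small values do not settle whether the numbers are pairs, although islets of a mouse were divided between the conditions. The main fit did not take them as pairs. With the replicate number as a block, 12 genes were higher and 4 lower, with Ltv1 and Lsg1 lost, and the median was 0.088. The other pathway genes gave 14 higher and 12 lower, as without the block. Depth limits the low genes most: the sparsest of the 56, Nhp2, had 454 counts in all, and its interval ran from -1.07 to 0.31.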
